A study of Homo sapiens with 3 samples.

Results

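The expression of annexin genes was read from 3 RNA sequencing libraries of Hep3B, a line from a human liver cancer, and each of the 3 groups held 1 library. The 10 members, ANXA1, ANXA2, ANXA3, ANXA4, ANXA5, ANXA6, ANXA7, ANXA9, ANXA11 and ANXA13, were taken by matching Ensembl identifiers to gene symbols among the 19869 genes of the deposited table. They were chosen by family membership, and ANXA1 was in addition selected on its measured FPKM, for its large difference between libraries, so its values here are a description. The control library carries the title NT-Empty and the treatment label Fugene treatment, and the labels do not say if a vector without insert or a control RNA was added. The second library came from cells transfected with pcDNA3.1-HKR3, a plasmid for HKR3, the zinc finger protein now named ZBTB48. The third came from cells transfected with siTERT, a small interfering RNA against telomerase reverse transcriptase. All 3 groups were grown in DMEM with fetal bovine serum and handled with the Fugene HD transfection reagent. The cells are of 1 line, and the time between transfection and RNA extraction is not stated in the labels.

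Annexins are cytosolic proteins that bind acidic phospholipids of membranes when calcium rises. They share a core of conserved repeats that holds the calcium sites, while a variable tail at the amino end binds partners such as S100 proteins. They are known for roles in membrane repair, vesicle traffic, anticoagulation and, for annexin A1, the damping of inflammation. In liver, several annexins are low in hepatocytes and higher in bile duct cells and in tumours.

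Expression is read as FPKM, fragments per kilobase of transcript scaled to library size, so levels of different genes can be compared per length. The unit was inferred from the processing tools, as no label states it. ZBTB48 was at 4.91 FPKM in control cells, 2842 FPKM with HKR3 and 4.89 FPKM under the siTERT label. TERT was at 4.69, 4.25 and 5.37 FPKM in the same order, so knockdown was not seen under the siTERT label, and directions drawn from that library belong to its label. The estimated depth was 1.01e+07 fragments for the control, 1.13e+07 for HKR3 and 1.15e+07 under the siTERT label. Of 10 hepatocyte markers, 10 reached a mean of 1 FPKM, among them ALB and AFP, and 9 were below the control in the HKR3 library. Of all genes with that mean, 48.6% were above the control in the HKR3 library. Of 6 immune markers, 3 reached that mean, LYZ, CD14 and CD68, and the list summed to 431 FPKM in control cells, 243 FPKM with HKR3 and 441 FPKM under the siTERT label. Of 6 stromal and endothelial markers, 0 reached it. PTPRC, which marks leukocytes, and CD3E, which marks T cells, were listed at 0 in all 3 libraries. So were DCN, VWF and CDH5, which mark stroma and endothelium. With single libraries, no value below has a replicate error. Fewer cells expressing a gene and less of its RNA per cell cannot be told apart in these bulk libraries.

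ANXA2 and ANXA5 held most of the annexin RNA. Per length, they took 76.7% of the summed annexin level in control cells, 77.5% with HKR3 and 75.7% under the siTERT label. The sum over the 10 members was 831 FPKM in control cells, 881 FPKM with HKR3 and 907 FPKM under the siTERT label. As a share of all FPKM in the library it was 0.139%, 0.165% and 0.156% in the same order. Which treated library was the higher thus depended on the scaling. In the control the order of levels ran ANXA2, ANXA5, ANXA4, ANXA7, ANXA11, ANXA6, ANXA3, ANXA9, ANXA1 and ANXA13. The span was wide, from 411 FPKM for ANXA2 to 0.452 FPKM for ANXA13. In the HKR3 library the lower part of this order was rearranged, with ANXA1, ANXA11 and ANXA3 next to each other at 25.6, 25.4 and 24.6 FPKM and ANXA6 below them at 9.40 FPKM. Replicate spread is not known for any of these neighbours, so their order within a library is that of single measurements.

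**Figure D1:**
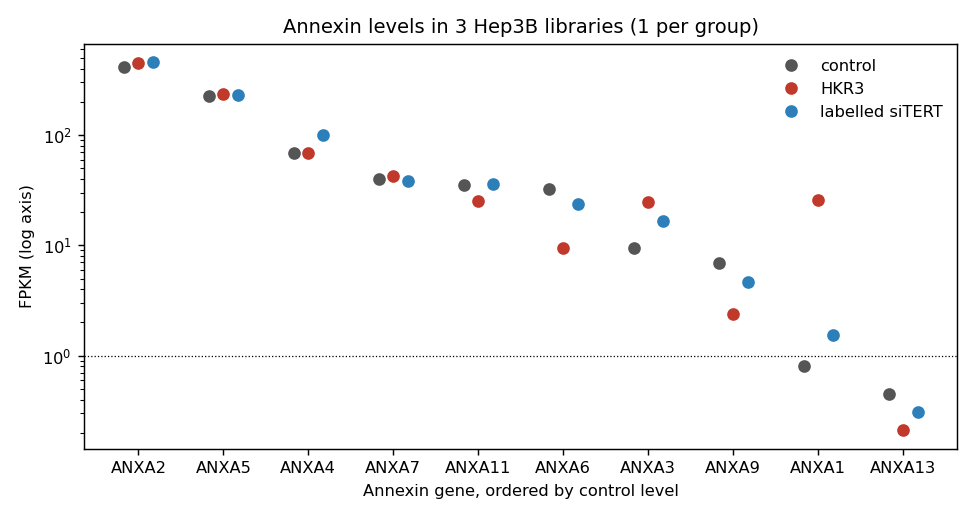
FPKM on a log axis of each of the 10 annexin genes in the control (grey), HKR3 (red) and labelled siTERT (blue) library, 1 point per library, with the 1 FPKM level dotted. ANXA1 stood at 0.798 FPKM in control cells and 25.6 FPKM with HKR3, while the points of ANXA2 and ANXA5 lay close together.

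The first comparison set the HKR3 library against the control. A gene was counted as different at 2-fold or more on the log2(FPKM + 1) scale, over the 10974 genes whose mean FPKM reached 1, and on this scale the change of low genes is understated. ANXA1 and ANXA3 were at least 2-fold higher in the HKR3 library, and ANXA6 and ANXA9 were at least 2-fold lower. The other 5 of the 9 members that passed the filter were within 2-fold, and ANXA13 stayed under the filter. Over all genes tested, 8.05% differed by at least 2-fold, 5.52% higher and 2.52% lower. Since ANXA1 was picked for this contrast, the count of members is not read against that share. The median difference of the 9 members was 0.05, beside -0.02 over all genes tested. Giving all libraries an equal sum, as TPM does, moved the median of all genes by 0.14 on the log2 scale, and the same 4 members passed 2-fold in the same directions. With that scaling 991 genes were higher and 208 lower, against 606 and 277 as deposited, so that the share of higher genes was 82.7% in place of 68.6%.

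ANXA1 encodes annexin A1, a protein induced by glucocorticoids that restrains phospholipase A2 and signals through formyl peptide receptors. Its level was 0.798 FPKM in control cells, 25.6 FPKM with HKR3 and 1.54 FPKM under the siTERT label. The HKR3 library stood apart, and the other two were low. These levels rested on about 12, 436 and 27 fragments in the same order. The ratio of the HKR3 library to the control was 32.0, with a 95% interval of 18.4 to 63.3 for counting error only. The log2(FPKM + 1) difference was 3.89, the fifth highest among the genes tested (rank 5). Against the library labelled siTERT the ratio was 16.6, with a counting interval of 11.1 to 25.1. ANXA1 made up 0.0960% of the annexin sum in the control and 2.90% in the HKR3 library. The difference depended on the pseudocount, at 4.84 with 0.1 FPKM and 2.40 with 5 FPKM.

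ANXA3 encodes annexin A3, studied as a marker of aggressive hepatocellular carcinoma. It was at 9.45 FPKM in control cells, 24.6 FPKM with HKR3 and 16.6 FPKM under the siTERT label. Both treated libraries were above the control, and the HKR3 library was the highest. The ratio to the control was 2.60 in the HKR3 library, with a counting interval of 2.17 to 3.14, and the log2 difference was 1.29.

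ANXA6 encodes annexin A6, whose core is extended by further repeats and which is tied to cholesterol transport and late endosomes. It was at 32.2 FPKM in control cells, 9.40 FPKM with HKR3 and 23.6 FPKM under the siTERT label. The control was the highest library and the HKR3 library the lowest. The level was 3.43-fold lower in the HKR3 library, at a ratio of 0.292 with a counting interval of 0.253 to 0.334. Its log2 difference of -1.68 was among the most negative of all genes tested, at rank 17 from the bottom.

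ANXA9 encodes annexin A9, an unusual member whose calcium-binding sites are largely lost. It was at 6.86 FPKM in control cells, 2.40 FPKM with HKR3 and 4.65 FPKM under the siTERT label. The libraries lay in the same order as for ANXA6. The ratio of the HKR3 library to the control was 0.350, with a counting interval of 0.248 to 0.492, on about 127 and 50 fragments. The log2 difference was -1.21, at rank 125 from the bottom, and fell short of 2-fold with a pseudocount of 5 FPKM, at -0.68.

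**Figure D2:**
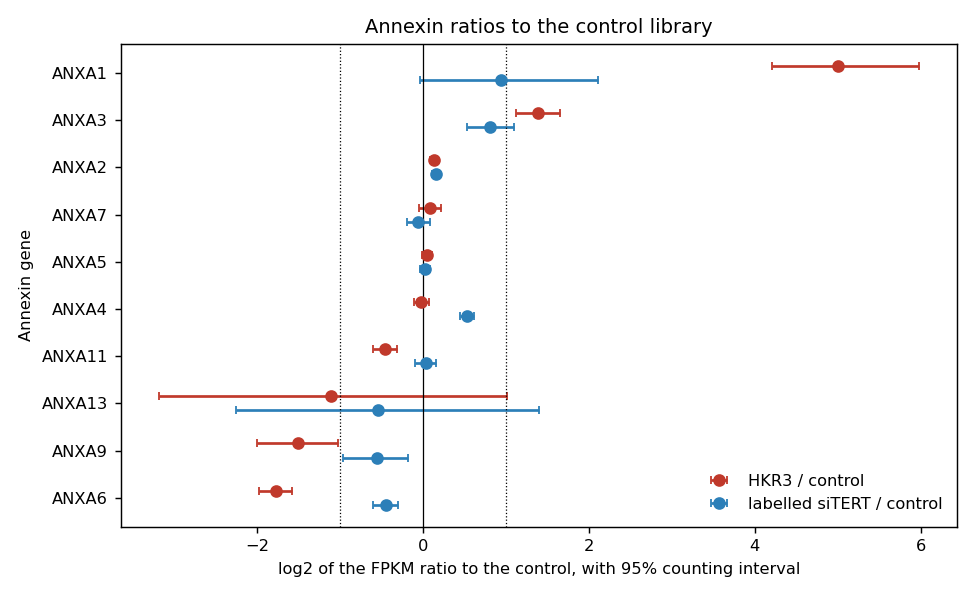
Log2 of the FPKM ratio to the control for each annexin in the HKR3 (red) and labelled siTERT (blue) library, with 95% counting intervals on estimated fragments and the 2-fold levels dotted. ANXA1 lies far to the right at a ratio of 32.0 in the HKR3 library, ANXA6 lies farthest to the left at 0.292, and the widest intervals belong to ANXA13.

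The bases before the start sites of the 4 members past 2-fold are shown, since these are the genes that differed between the libraries. Each window holds 250 bases upstream of a RefSeq transcript start on GRCh38.p14, a later build than the hg19 used for the expression table, and is written 5′ to 3′ along the gene. For ANXA6 the start of the full-length transcript is shown. Capitals mark matches on either strand to a fixed set of motifs, namely AP-1 (TGANTCA), the cyclic AMP response element (TGACGTCA), the telomeric repeat bound by ZBTB48 (TTAGGG), the GC box (GGGCGG), the TATA box (TATAAA), and the NF-kB site and CArG box by their consensus.
ANXA1, chr9:73151615-73151864, plus strand: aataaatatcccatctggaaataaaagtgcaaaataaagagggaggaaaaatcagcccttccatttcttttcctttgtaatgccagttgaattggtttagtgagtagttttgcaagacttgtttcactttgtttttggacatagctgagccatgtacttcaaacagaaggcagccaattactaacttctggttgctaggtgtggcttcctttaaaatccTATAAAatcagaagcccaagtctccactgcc
ANXA3, chr4:78551520-78551769, plus strand: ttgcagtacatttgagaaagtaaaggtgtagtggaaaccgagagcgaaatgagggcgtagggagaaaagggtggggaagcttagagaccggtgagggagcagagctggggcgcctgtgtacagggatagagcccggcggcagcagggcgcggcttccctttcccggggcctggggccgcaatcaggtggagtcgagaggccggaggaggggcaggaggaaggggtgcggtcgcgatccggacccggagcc
ANXA6, chr5:151157780-151158029, minus strand: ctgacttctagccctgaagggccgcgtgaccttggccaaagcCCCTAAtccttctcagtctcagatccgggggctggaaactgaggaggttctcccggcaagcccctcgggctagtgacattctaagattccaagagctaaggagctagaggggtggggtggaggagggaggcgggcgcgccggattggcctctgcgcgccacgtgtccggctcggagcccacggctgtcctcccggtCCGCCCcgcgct
ANXA9, chr1:150982042-150982291, plus strand: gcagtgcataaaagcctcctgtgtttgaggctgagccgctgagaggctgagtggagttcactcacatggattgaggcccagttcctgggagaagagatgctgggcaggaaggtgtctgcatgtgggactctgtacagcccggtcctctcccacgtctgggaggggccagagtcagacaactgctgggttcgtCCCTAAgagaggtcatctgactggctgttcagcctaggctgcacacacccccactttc

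The ANXA1 window differed in base composition from the other windows of the family. Its GC content was 38.4% and it held 0 CpG dinucleotides, beside medians of 58% and 11 over 35116 windows of the same length. Among the 13 windows of the 9 members with an entry, the other GC contents ran from 50% for ANXA11 to 78.8% for ANXA5. The ANXA1 window held a TATA box between 31 and 26 bases before the start, a motif found in 3 of the 13 windows of the family, with ANXA2 and ANXA11, and in 10.7% of all windows. The ANXA3 window held no match to the motifs searched. The windows of ANXA6 and ANXA9 each held 1 telomeric repeat, on the strand opposite to the gene, starting 208 and 58 bases before the start. Of the 13 windows of the family, 3 held this repeat, the third being one of ANXA11, and so did 7.94% of all windows. The ANXA6 window also held a GC box, as did 7 of the 13 windows and 42.6% of all windows. The NF-kB consensus was in 2 of the 13 windows, 1 of ANXA4 and the ANXA6 window not shown, and in 5.21% of all windows. The AP-1 letters were in 6.57% of all windows and, within the family, in that of ANXA2. A match is a run of letters and was not tested as a binding site.

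ANXA2 encodes annexin A2, which pairs with S100A10 on the cell surface and helps convert plasminogen to plasmin. It was at 411 FPKM in control cells, 449 FPKM with HKR3 and 456 FPKM under the siTERT label. Its ratio to the control was 1.09 with HKR3 (counting interval 1.06 to 1.13) and 1.11 under the siTERT label (1.07 to 1.15). Of its transcript, 51.3% of the units of 31 bases also lie in other genes, chiefly the processed pseudogene ANXA2P2, so the level depends on how the authors assigned shared reads. ANXA5 encodes annexin A5, the phosphatidylserine-binding anticoagulant used as a label of dying cells. It was at 226 FPKM in control cells, 234 FPKM with HKR3 and 230 FPKM under the siTERT label. These levels lay within counting error of each other, with ratios of 1.03 (0.991 to 1.08) and 1.02 (0.973 to 1.06).

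ANXA4 encodes annexin A4, an annexin of secretory and ductal epithelium. It was at 69.3 FPKM in control cells, 68.3 FPKM with HKR3 and 99.8 FPKM under the siTERT label. Here the library labelled siTERT stood above the other two. Its log2 difference with HKR3 was -0.02 on deposited values and 0.13 after scaling to equal sums, so no direction is given. ANXA7 encodes synexin, which promotes granule fusion. It was at 40.0 FPKM in control cells, 42.2 FPKM with HKR3 and 38.4 FPKM under the siTERT label. The counting interval of its ratio in the HKR3 library, 0.965 to 1.16, included no difference. Its transcript overlaps an unnamed gene on the opposite strand, AL512656.1, and it is not known here if counting used strand.

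ANXA11 encodes annexin A11, which tethers RNA granules to lysosomes. It was at 35.0 FPKM in control cells, 25.4 FPKM with HKR3 and 35.8 FPKM under the siTERT label. The HKR3 library was the low one, at a ratio of 0.726 with a counting interval of 0.657 to 0.801, and a log2 difference of -0.45, or -0.30 after scaling to equal sums. ANXA13 encodes annexin A13, a lipid-modified annexin of intestinal epithelium. It was at 0.452 FPKM in control cells, 0.210 FPKM with HKR3 and 0.310 FPKM under the siTERT label. About 7, 4 and 6 fragments stood behind these levels, and no difference was detectable, with a counting interval of 0.110 to 2.01 for the HKR3 library. Among annexin genes outside the 10 members, ANXA8 was listed at 0 in all libraries, and ANXA10 was listed at 0 except for 0.0563 FPKM in the HKR3 library. ANXA2R, named as a receptor of annexin A2, was at 1.45 FPKM in control cells, 1.38 FPKM with HKR3 and 2.86 FPKM under the siTERT label.

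The second comparison set the library labelled siTERT against the control, where TERT was not lower. None of the 9 members that passed the filter differed by 2-fold, beside 0.483% of all genes tested (0.282% higher and 0.200% lower). The median difference of the 9 members was 0.03, beside -0.01 over all genes. On the log2(FPKM + 1) scale ANXA3 had the largest difference of the family, 0.75, and ranked 75 from the top. It was the 1 member past 1.5-fold on that scale, as were 1.69% of all genes in the higher direction. Its FPKM ratio was 1.75, with a counting interval of 1.45 to 2.14. ANXA4 had a difference of 0.52, at a ratio of 1.44 (1.36 to 1.52). ANXA1 had a difference of 0.50, but its ratio of 1.92 had a counting interval of 0.971 to 4.30, so a difference was not detectable at this depth. ANXA9 and ANXA6 had differences of -0.48 and -0.44, with ratios of 0.678 (0.511 to 0.883) and 0.731 (0.660 to 0.809). Both treated libraries are set against the same control library, so the matching signs of ANXA1, ANXA3, ANXA6 and ANXA9 in the 2 comparisons are not independent.

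**Figure D3:**
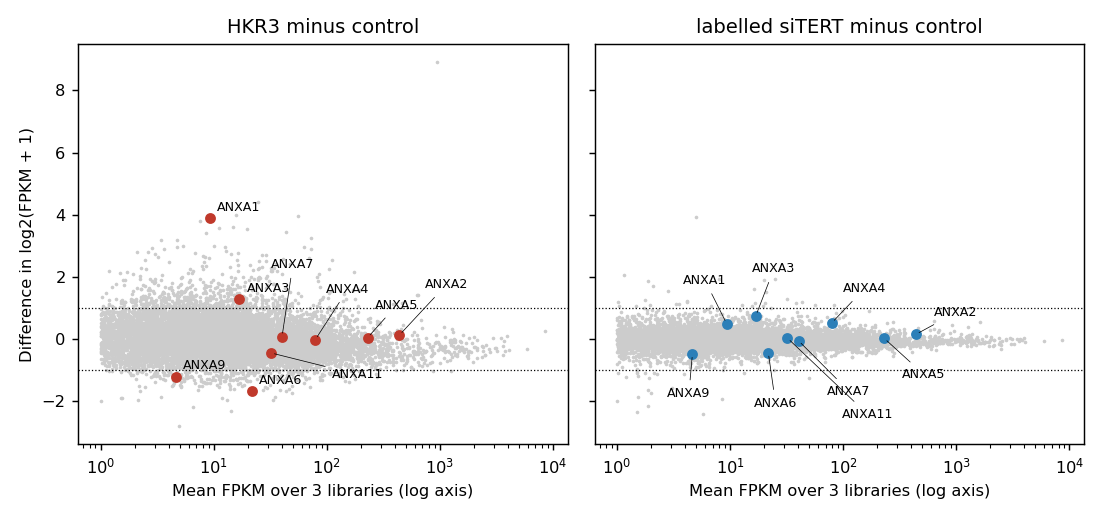
Difference in log2(FPKM + 1) from the control against mean FPKM (log axis) for the 10974 genes tested (grey) and the 9 annexins among them (coloured), for the HKR3 library on the left and the library labelled siTERT on the right, with 2-fold dotted. ANXA1 lies at the upper edge on the left at 3.89, and no annexin lies past 2-fold on the right.

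The genes whose pair of differences lay closest to that of ANXA1 were JUN, DUSP8, ATF3, CXCL2 and RASD1. Likeness was the Euclidean distance between the 2 log2 differences from the control, over 3 libraries. ANXA1 was picked for its large difference, so genes near it have large differences in the HKR3 library by construction. Both differences use the same control library, and shared regulation was not tested. JUN, a subunit of AP-1, was at a distance of 0.20, with differences of 3.95 with HKR3 and 0.68 under the siTERT label. DUSP8, a phosphatase of MAP kinases, was at 0.28, ATF3, a stress-induced transcription factor, at 0.33, and the chemokine gene CXCL2 at 0.37. RASD1, a Ras-related protein induced by dexamethasone, was at 0.57, and was at 1.14 FPKM in control cells, 21.7 FPKM with HKR3 and 2.72 FPKM under the siTERT label.

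Genes of the annexin A1 pathway included members past 2-fold in the HKR3 library. Of 21 listed receptors, lipid mediator enzymes and glucocorticoid response genes, 11 passed the filter, 3 were at least 2-fold higher and 0 lower, beside 5.52% and 2.52% of all genes tested, with a median of 0.04. With a pseudocount of 0.1 FPKM 1 was lower, and after scaling to equal sums 4 were higher and 1 lower. The formyl peptide receptors FPR1, FPR2 and FPR3, through which annexin A1 signals, were listed at 0 in all 3 libraries. NR3C1, the glucocorticoid receptor, was at 2.85 FPKM in control cells, 10.9 FPKM with HKR3 and 3.73 FPKM under the siTERT label. DUSP1, a phosphatase induced by glucocorticoids and by stress, was at 17.8, 179.9 and 19.2 FPKM in the same order. TSC22D3, known as GILZ and also induced by glucocorticoids, was at 8.40, 16.4 and 8.82 FPKM, just under 2-fold with a difference of 0.89. Of other glucocorticoid response genes in the list, SGK1 had a difference of 0.64 in the HKR3 library, and FKBP5 and PER1 had -0.27 and -0.18. ZBTB16, which stayed under the filter, had 0.23. PLA2G4A, the cytosolic phospholipase A2 that annexin A1 inhibits, was at 1.56, 1.19 and 1.65 FPKM. PLA2G4C, a related phospholipase, was at 0.255, 4.56 and 0.270 FPKM and passed the filter through the HKR3 library alone. PLA2G4B was at 1.28, 0.178 and 2.32 FPKM, a difference of -0.95 with HKR3 and 0.54 under the siTERT label.

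S100 proteins, small calcium-binding partners of the annexin tails, had no member past 2-fold on the log2(FPKM + 1) scale in either comparison. Of all genes tested, 8.05% were past it with HKR3 and 0.483% under the siTERT label. With a pseudocount of 0.1 FPKM 2 S100 genes were past it with HKR3, S100A1 and S100A16, whose FPKM ratios to the control were 0.432 and 0.427. Of 17 listed, 9 passed the filter, and 8 of these were below the control with HKR3. Of all genes tested, 48.6% were above the control with HKR3. The S100 median was -0.53, or -0.39 after scaling to equal sums. In the library labelled siTERT 7 of the 9 S100 genes were above the control, beside 47.4% of all genes tested, and their median was 0.15. S100A10, the partner of annexin A2, was at 798 FPKM in control cells, 603 FPKM with HKR3 and 787 FPKM under the siTERT label. Per length, the ratio of S100A10 to ANXA2 within a library was 1.94, 1.34 and 1.73 in the same order. S100A11, a partner of annexin A1, was at 347, 278 and 406 FPKM. Its ratio to ANXA1 was 434 in control cells, 10.9 with HKR3 and 264 under the siTERT label. Only about 12 and 27 ANXA1 fragments stood behind the ratios in the control and under the siTERT label. The lower ratio with HKR3 follows largely from ANXA1, which was picked for its large difference. S100A6, or calcyclin, a partner of annexin A11, was at 71.5, 89.1 and 135 FPKM. Its ratio to ANXA11 was 2.04, 3.50 and 3.76, lowest in the control. S100A9, S100A1 and S100A16 had differences of -0.72, -0.71 and -0.71 in the HKR3 library, and S100A4 was at 13.9, 10.8 and 22.3 FPKM.

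Partners of annexin A2 in plasminogen activation had 1 member past 2-fold with HKR3, lower, beside 2.52% of all genes tested. Of 12 listed, 7 passed the filter, and the median in the HKR3 library was -0.45. PLG, plasminogen itself, was at 24.9 FPKM in control cells, 11.5 FPKM with HKR3 and 25.4 FPKM under the siTERT label, a difference of -1.04 in the HKR3 library that was within 2-fold after scaling to equal sums or with a pseudocount of 5 FPKM. PLGRKT, a plasminogen receptor, was at 13.8, 8.40 and 11.4 FPKM. CTSB, cathepsin B, was at 90.9, 63.2 and 80.4 FPKM. PLAU, urokinase, was at 2.79, 3.10 and 4.49 FPKM, while PLAT, tissue plasminogen activator, was listed at 0 in all libraries. AHNAK, a large scaffold bound by the annexin A2 and S100A10 complex, was at 18.5, 18.0 and 19.6 FPKM.

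Of 25 listed genes of plasma membrane repair, 19 passed the filter, and 3 were at least 2-fold higher with HKR3, beside 5.52% of all genes tested, with a median of 0.05. MYOF, myoferlin, a ferlin that seals membranes, was at 2.29 FPKM in control cells, 17.4 FPKM with HKR3 and 4.75 FPKM under the siTERT label. CAV1, caveolin 1, was at 2.33, 10.3 and 2.71 FPKM, and CAPN2, a calpain protease, at 1.62, 5.19 and 1.97 FPKM. The ESCRT genes of the list lay within 2-fold in both comparisons. SMPD1, acid sphingomyelinase, and EHD2, a caveolar ATPase, had differences of -0.64 and -0.59 in the HKR3 library. DYSF, dysferlin, was under the filter in all libraries, the highest level being 0.0847 FPKM.

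Of 9 partners of annexins A7 and A11, 7 passed the filter and 0 differed by 2-fold in either comparison. Beside them, 8.05% of all genes tested differed with HKR3 and 0.483% under the siTERT label. PDCD6, or ALG-2, a calcium sensor that binds both annexins, was at 110 FPKM in control cells, 88.7 FPKM with HKR3 and 111 FPKM under the siTERT label. SRI, sorcin, a partner of annexin A7, was at 71.0, 73.7 and 66.3 FPKM, and its ratio to ANXA7 stayed between 1.72 and 1.78. CACYBP, the calcyclin-binding protein, was at 108, 73.0 and 75.2 FPKM, lower in both treated libraries. PEF1, LAMP1 and SEC13 had differences of 0.32, -0.22 and -0.17 in the HKR3 library.

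Other proteins that bind membranes with calcium were also compared. Of 23 listed copines, synaptotagmins and relatives, 10 passed the filter and 1, SYT1, was at least 2-fold higher in the HKR3 library, at 0.995 FPKM in control cells, 3.59 FPKM with HKR3 and 1.44 FPKM under the siTERT label. Beside it, 5.52% of all genes tested were higher, and the count was 0 with a pseudocount of 5 FPKM and 2 with 0.1 FPKM or after scaling to equal sums. RASAL2 and RASA1, which switch off Ras, had differences of 0.92 and 0.59 in the HKR3 library. CPNE8, a copine, and SYTL5, a synaptotagmin-like protein, had differences of 0.29 and 0.50 in the library labelled siTERT. Scramblases and flippases place phosphatidylserine, the lipid that annexin A5 binds, on a face of the membrane. Of 14 listed, 8 passed the filter, and 7 of these were below the control in the HKR3 library. Of all genes tested, 48.6% were above the control in that library. The median of the 8 was -0.40, or -0.26 after scaling to equal sums. MFGE8, a secreted phosphatidylserine-binding protein and the 1 member past 2-fold, was at 6.96 FPKM in control cells, 2.59 FPKM with HKR3 and 5.72 FPKM under the siTERT label. Of all genes tested 2.52% were as much lower, and MFGE8 was within 2-fold with a pseudocount of 5 FPKM. XKR8, a scramblase activated in apoptosis, was at 15.4, 8.47 and 16.5 FPKM, and PLSCR3, PLSCR1 and ANO6 had differences of -0.69, -0.44 and -0.36 in the HKR3 library. In the library labelled siTERT, 0 members of these 7 lists passed 2-fold, beside 0.483% of all genes tested. With a pseudocount of 0.1 FPKM 1 did, MYOF, at a ratio of 2.07.

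**Figure D4:**
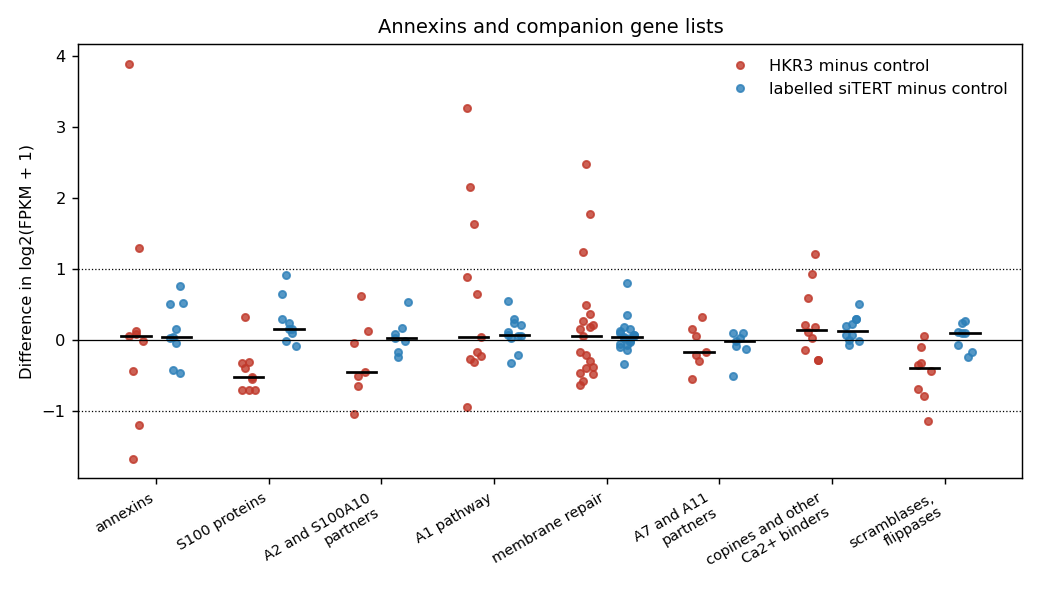
Difference in log2(FPKM + 1) from the control for the genes of each list with a mean of at least 1 FPKM, in the HKR3 (red) and labelled siTERT (blue) library, with list medians as black bars and 2-fold dotted. The annexin points spread from -1.68 to 3.89 in the HKR3 library around a median of 0.05, while the S100 points lie mostly under 0 around a median of -0.53.

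Markers of bile duct cells, in which several annexins are known to be high, were compared beside these values. Of 6 listed, 4 passed the filter. The 6 summed to 128 FPKM in control cells, 118 FPKM with HKR3 and 133 FPKM under the siTERT label. Most of this was EPCAM and SOX9, at 71.7 and 53.3 FPKM in control cells. SPP1, osteopontin, was at 1.25, 5.48 and 3.93 FPKM and KRT19, keratin 19, at 1.78, 3.71 and 3.69 FPKM, both higher in the 2 treated libraries. SPP1 was the 1 marker past 2-fold, with differences of 1.53 with HKR3 and 1.13 under the siTERT label. Of all genes tested, 5.52% and 0.282% were as much higher. EPCAM and SOX9 had differences of -0.23 and -0.16 in the HKR3 library, and KRT7, a defining keratin of bile ducts, was listed at 0 in all libraries. The part of these markers in the annexin values was not tested.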

How the data were processed

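The deposited table holds FPKM per gene and library, as made by the authors; the submitters' processing notes name the tools STAR (2.5.0), Cufflinks and Cuffdiff (2.2.1) and the build hg19. Strand use, read filters and any further scaling between libraries were not given in the sources. TRIzol was used for extraction and a stranded TruSeq mRNA kit for the libraries, per the labels' protocols. A table of gene names gave a symbol to 19119 of 19869 genes.

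Differences were computed in Python 3.11.15 as log2(FPKM + 1), over genes whose mean FPKM reached 1. With 1 library per group no p-value is given, and a 2-fold size rule took the place of a test. The size rule was run on simulated large changes in genes of at least 5 FPKM, and the interval on simulated counts of a known ratio. Low genes and the estimated worth of 1 fragment were not simulated. The worth of 1 fragment was estimated from low genes with a single GENCODE v29 transcript, 1000 bases or longer (65 of 170, 62 of 196 and 70 of 191 low genes lay within 25% of it in the control, the HKR3 library and the library labelled siTERT), and gave the fragments and exact binomial 95% intervals, which cover counting error only. If FPKM was scaled further, these are scaled sizes.

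The members, gene lists, motifs and alternatives were chosen with earlier results of these data known. Named were all members, other annexin genes, the label checks, up to 5 genes of each list with the largest difference plus fixed partners, and the 5 genes most like ANXA1. SGK1, ZBTB16, FKBP5, PER1, PLAT, FPR3, DYSF and the cell type markers were named after their values were seen. Protein sequences were not used here. Promoter windows come from RefSeq on GRCh38.p14.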

Additional observations from a re-analysis of the deposited data

How the results depend on the processing

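Both comparisons were repeated with other pseudocounts, filters, a scaling to equal sums and a smaller fold. The annexin counts in the HKR3 library stayed at 2 higher and 2 lower, except that 1 was lower with a pseudocount of 5 FPKM, where ANXA9 was at -0.68, and 1 with a mean of at least 5 FPKM, where ANXA9 was not tested. In the library labelled siTERT they stayed at 0, except for 1 higher, ANXA3, at 1.5-fold. Of 60 annexin differences under another pseudocount or scaling, 58 kept their sign and their side of 2-fold; besides ANXA9, ANXA4 in the HKR3 library turned to 0.13 after scaling.

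Counts over all genes moved more. In the HKR3 library, 606 were higher and 277 lower. With a pseudocount of 0.1 FPKM 488 were lower, with 5 FPKM 238 were higher and 93 lower, after scaling 991 were higher, and at 1.5-fold the counts were 1674 and 1394. Under the siTERT label, 31 were higher and 22 lower. These became 103 and 57 with a pseudocount of 0.1 FPKM, 10 and 3 with 5 FPKM, and 17 and 5 with a mean of at least 5 FPKM. After scaling 47 were higher, without a filter 37 were lower, and at 1.5-fold 186 were higher and 136 lower. Of 140 list counts 12 moved by over 1.5 times, and of 70 list medians 1 changed sign, that of the partners of annexins A7 and A11 in the library labelled siTERT. Without a filter, which adds genes at or near 0, medians shrank in the HKR3 library, to 0 for S100 proteins, -0.02 for plasminogen partners, -0.06 for scramblases and flippases, 0 for the annexin A1 pathway and -0.01 for partners of annexins A7 and A11. Other causes were not tested.

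No paired analysis was possible because each group holds 1 library, and no library was left out for the same reason. The sum of ANXA2 with its pseudogenes was not run, since the pseudogenes were not analysed here. Depth limits ANXA13 and, outside the HKR3 library, ANXA1.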
